A study of Mus musculus with 4 samples.

Results

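The aminoacyl-tRNA synthetases are 36 enzyme genes here, read with the scaffold genes Aimp1 and Aimp2. The members were a fixed list of 38 gene symbols, matched to gene identifiers through the RefSeq mouse gene table, out of 18872 genes listed in any of the 4 files. They comprise 19 cytosolic enzymes, Wars, which is given apart because interferon induces it, 2 scaffold genes and 16 mitochondrial enzymes. All 38 were listed in every file and all 38 passed the filter on low counts. The RNA-seq libraries came from primary epithelial cells of the colon, taken from mice given 2% DSS (dextran sulfate sodium, which damages the gut epithelium) for 3 days. The wild-type group and the group labelled EZH2-IEC-/-, which lacked the histone methyltransferase Ezh2 in the intestinal epithelium (knockout), each had 2 libraries, and both groups received DSS. The labels give no strain, age or Cre driver and do not state if the libraries within a group are from different animals. The p-values therefore cover library-to-library spread alone, and that spread may be technical.

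Each synthetase joins one amino acid to its tRNAs, using ATP, and so supplies the ribosome with charged tRNA. Most amino acids have a pair of nuclear genes, one for the cytosolic enzyme and one for the enzyme imported into mitochondria, where it serves the few proteins encoded by mitochondrial DNA. Gars and Kars each encode both forms, and mitochondria charge glutamine tRNA by an indirect route. In the cytosol some of the enzymes are bound together by the scaffolds in the multisynthetase complex. Several cytosolic synthetase genes are known targets of ATF4, the transcription factor of the integrated stress response, which amino acid shortage and endoplasmic reticulum stress activate.

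Estimated counts summed to between 5037367 and 5446998 per library. Ezh2 itself had 105 and 102 counts in the wild-type libraries against 86 and 83 in the knockout libraries (log2 fold change -0.27 ± 0.17, adjusted p = 0.217), and such a whole-gene count cannot check the loss of an exon. Of 9 colon epithelial markers, 6 were higher and 2 lower in the knockout. The 2 lower ones were Epcam and Cdh1 (log2 fold change -0.27 and -0.6). The summed FPKM (fragment counts scaled by transcript length and library size) of the 9 markers was 10910 and 11320 in the wild-type libraries. It was 12240 and 12760 in the knockout libraries. Over all tested genes, 23.0% were called higher and 20.8% lower (edgeR, adjusted p under 0.05), and each marker count in this paragraph stands beside these shares. Absorptive colonocyte markers fell in 4 of 4 cases. Of 4 goblet cell markers 1 rose and 1 fell, which is near those shares. T and NK cell markers rose in 7 of 7 cases, from summed FPKM of 10.5 and 8.9 to 51.4 and 53.2, with Nkg7 at 0 in one wild-type library. Macrophage and dendritic markers rose in 6 of 8 cases, from 292.6 and 313.2 to 417.6 and 455.3 FPKM. Of 5 measured neutrophil markers 3 rose, but the group sums of FPKM overlapped. By replicate number, the wild-type sums were 6.95 (1) and 251 (2), the knockout sums 155.4 (1) and 338 (2). Ly6g alone gave 240.64 FPKM in wild-type replicate 2 and 206.33 FPKM in knockout replicate 2. It was not listed for either replicate 1 library and counts as 0 there, so these sums cannot be compared between replicate numbers. Of 8 B and plasma cell markers 3 rose and 4 fell. Fibroblast and smooth muscle markers fell in 7 of 8 cases, from 1971 and 2145 to 891.9 and 1141 FPKM, as did 3 of 4 endothelial and 3 of 3 measured erythroid markers. The part of this mixture in the results below was not tested, and in bulk RNA a change in the number of cells of a type and in RNA per cell cannot be told apart.

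Of the 38 members, 20 were called different between the groups, all of them higher in the knockout, where 43.7% of all tested genes were called in either direction. Most of the 20 were cytosolic. Of the 19 cytosolic members other than Wars, 15 rose and 0 fell, where 23.0% of all 13608 tested genes were called higher and 20.8% lower (edgeR's quasi-likelihood test, Benjamini-Hochberg adjusted p under 0.05). The median log2 fold change, knockout minus wild type, was 0.63, against -0.0 over all tested genes. Every one of the 19 had a positive fold change, from 0.07 to 1.21. At an unadjusted p under 0.05 no cytosolic member was lower, and 0 were called lower by DESeq2 or limma. In CPM (counts scaled to library size, here with edgeR's TMM factors), both knockout libraries lay above both wild-type libraries for 18 of the 19, against 36.8% of tested genes. The summed FPKM of the 19 genes was 541 and 532.8 in the wild-type libraries and 850 and 762.1 in the knockout libraries.

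**Figure D1:**
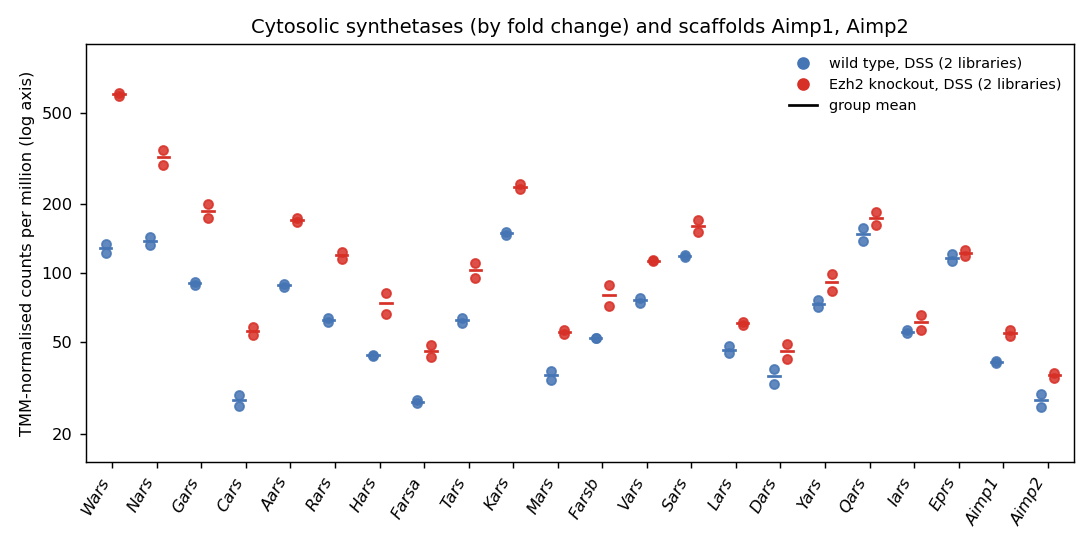
TMM-normalised CPM (log axis) of each cytosolic synthetase, ordered by fold change, and of the scaffolds, in the 2 wild-type (blue) and 2 knockout (red) libraries, with the group mean as a bar. Wars stands highest in the knockout at 614 and 593, and of the 22 genes shown only Eprs has overlapping groups.

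The steepest rise among the 19 was that of Nars, which charges asparagine tRNA. Nars had 144 and 133 CPM in wild type and 346 and 297 CPM in knockout (log2 fold change 1.21 ± 0.10 SE, adjusted p = 2.73e-05). Its lowest knockout library was above its highest wild-type library by a wide margin relative to the gap within either group. Gars, the glycine enzyme for both compartments, had 92.0 and 89.0 CPM in wild type and 200 and 175 CPM in knockout (1.05 ± 0.10, adjusted p = 5.87e-05). Cars, the cysteine enzyme, was one of the least abundant cytosolic members with 26.5 and 29.6 CPM in wild type and 58.1 and 53.7 CPM in knockout (0.99 ± 0.12, adjusted p = 0.000255). Aars, the alanine enzyme, went from 87.6 and 90.1 to 174 and 167 CPM (0.94 ± 0.09, adjusted p = 6.02e-05). For all 4 genes the libraries of a group lay close together and the groups did not overlap.

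Rars, the arginine enzyme, had the same fold change as Aars, with 61.3 and 63.8 CPM in wild type and 124 and 116 CPM in knockout (0.94 ± 0.09, adjusted p = 7.53e-05). Kars, which charges lysine tRNA in both compartments, was the most abundant member in wild type per transcript length, at 73.9 ± 1.24 FPKM (SD, n = 2), and had 147 and 152 CPM there against 245 and 233 CPM in knockout (0.68 ± 0.09, adjusted p = 0.000295). Tars, the threonine enzyme, went from 63.8 and 60.9 to 111 and 95.0 CPM (0.72 ± 0.11, adjusted p = 0.000686). Vars, the valine enzyme, which binds elongation factor 1, went from 74.3 and 78.1 to 114 and 113 CPM (0.58 ± 0.09, adjusted p = 0.000958). These were the 8 cytosolic members with the smallest p, and in each the knockout libraries were both high.

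The other 7 called members had larger p-values, with changes of 0.31 to 0.75. Hars, for histidine, changed by 0.75, and Farsa and Farsb, the alpha and beta chains of the phenylalanine enzyme, by 0.73 and 0.62. Mars, for methionine, changed by 0.63 and Sars, for serine, by 0.43. The calls of the remaining pair did not hold in all 13 alternative analyses. Lars was lost in 5 of them and Yars in 9. Lars, for leucine, rose by 0.38 (adjusted p = 0.0149) but did not pass when wild-type replicate 2 was left out (0.33, adjusted p = 0.127). With all libraries kept, Lars missed the threshold with library totals alone (adjusted p = 0.0518), with DESeq2 (0.0948) and with limma on log2(FPKM + 1) and log2(FPKM + 0.1) (0.1 and 0.0977). Yars, for tyrosine, rose by 0.31 (adjusted p = 0.0459) and lost its call without wild-type replicate 1 (0.25, adjusted p = 0.226), wild-type replicate 2 (0.36, adjusted p = 0.0877) or knockout replicate 1 (0.18, adjusted p = 0.281). With all libraries kept, Yars missed it with library totals alone (0.149), without the filter on low counts (0.0678), with a mean FPKM of at least 5 (0.0956), with DESeq2 (0.129) and in both limma fits (0.194 and 0.197). The other 13 called members passed in all 13 alternative analyses.

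The 4 cytosolic members that did not pass were Dars, Qars, Iars and Eprs, and all 4 encode enzymes of the multisynthetase complex. Eprs, the fused enzyme for glutamate and proline, had 113 and 121 CPM in wild type and 126 and 119 CPM in knockout (0.07 ± 0.09, adjusted p = 0.593), so the groups overlapped. Iars, for isoleucine, had 56.5 and 54.9 CPM in wild type and 65.8 and 56.9 CPM in knockout (0.14 ± 0.11, adjusted p = 0.327). Its groups were separated only by the small gap between the highest wild-type and the lowest knockout library. Qars, for glutamine, had 157 and 139 CPM in wild type and 186 and 162 CPM in knockout (0.24 ± 0.11, adjusted p = 0.104). Dars, for aspartate, had 38.2 and 32.9 CPM in wild type and 49.4 and 42.5 CPM in knockout (0.37 ± 0.14, adjusted p = 0.0533). Without knockout replicate 2, the log2 fold changes of Dars and Qars were 0.48 and 0.34. With the replicate number as a block in edgeR, both passed (adjusted p = 0.00383 and 0.00259). Dars also passed on genes with the same transcript list in all files (adjusted p = 0.0382). These were not the members with the fewest reads: Eprs had 586 to 655 counts and Qars 750 to 968 counts per library, and the called Cars 138 to 302.

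Split by the complex, 4 of 8 cytosolic members inside it rose (Rars, Kars, Mars and Lars), with a median log2 fold change of 0.37. Outside it, 11 of 11 rose, with a median of 0.73 and a range of 0.31 to 1.21. The difference between these lists was not tested, and both shares lie above the 23.0% of all tested genes called higher. The scaffold genes resembled the lower part of this range. Aimp1, which anchors the complex and also gives rise to a secreted cytokine, had 40.7 and 41.6 CPM in wild type and 56.4 and 53.1 CPM in knockout (0.41 ± 0.11, adjusted p = 0.0126). It lost its call without wild-type replicate 1, wild-type replicate 2 or knockout replicate 1 (adjusted p = 0.0772, 0.0584 and 0.0609), nor did it pass with DESeq2 (0.0808). Aimp2, the central scaffold, had 26.1 and 29.8 CPM in wild type and 35.0 and 36.9 CPM in knockout (0.36 ± 0.13, adjusted p = 0.0533). Eef1e1, the smallest scaffold of the complex and not among the 38 members, rose by 0.82 ± 0.19 (adjusted p = 0.00771). A split by catalytic fold, chosen after the values were seen, gave 6 of 8 class I enzymes higher with a median of 0.48, leaving out Wars and the double enzyme Eprs, and 9 of 10 class II enzymes with a median of 0.73.

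**Figure D2:**
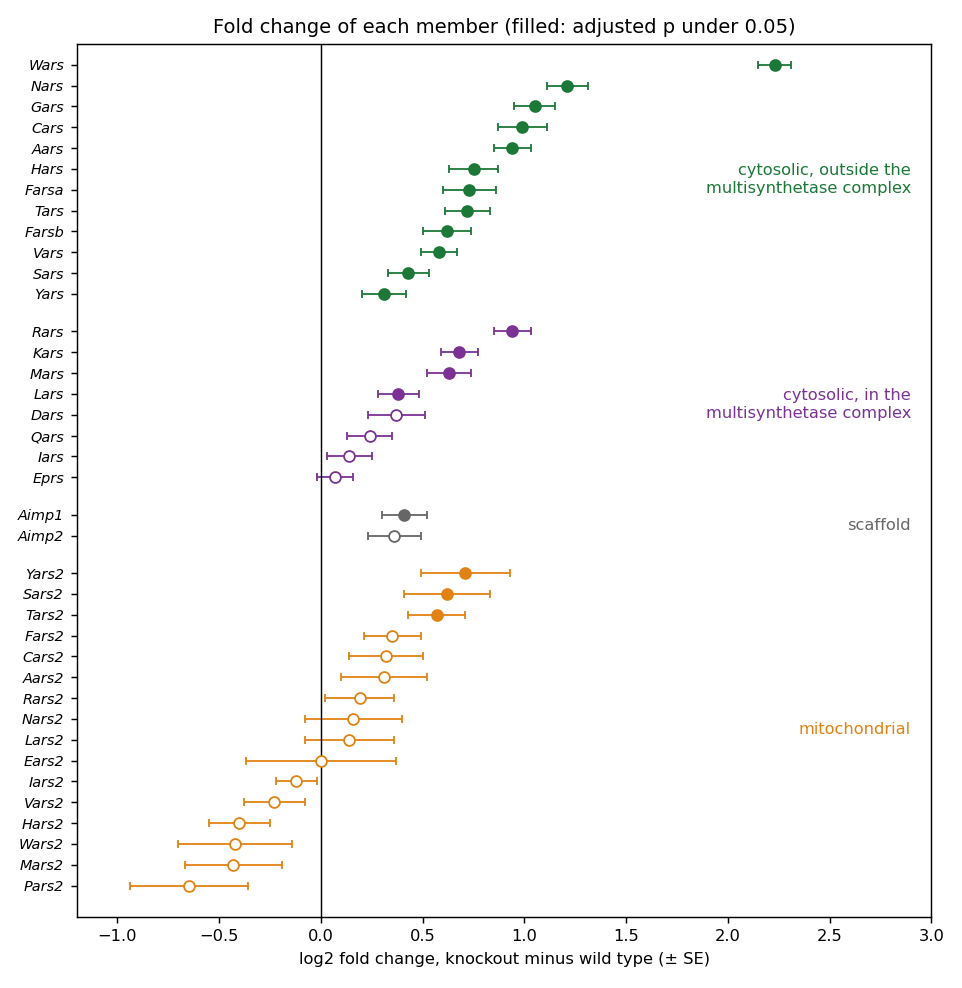
Log2 fold change (knockout minus wild type, ± SE) of the 38 members, grouped by compartment and by membership of the multisynthetase complex. Filled points passed the adjusted p threshold of 0.05, as 11 of 11 cytosolic members outside the complex other than Wars did, 4 of 8 inside it and 3 of 16 mitochondrial members.

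The promoters of the cytosolic members were searched for the C/EBP-ATF response element, the composite site through which ATF4 acts, because these genes moved together. RefSeq windows of 300 bases (250 before to 50 after the transcription start, build GRCm38.p6) were found for 29 of the 38 members. Cars, Hars, Lars, Nars, Rars, Vars, Wars, Hars2 and Pars2 had no window in the table. The motif TGATGNAAN was read on both strands. It was present in 5 of 13 cytosolic genes with a window (38.5%), in 0 of 14 mitochondrial genes and 0 of 2 scaffold genes, and in 4.50% of the 27025 genes of the table. The 5 genes were Gars, Aars, Tars, Yars and Iars, of which the first 4 rose and Iars did not pass. In the whole cytosolic class 15 of 19 rose, and the call of Yars was lost in 9 of 13 alternatives. Farsa, Farsb, Kars, Mars and Sars had a window without the motif and rose as well, while Dars, Eprs and Qars had neither motif nor call. Whether the motif goes with the rise was not tested. The window of Iars was added after its values were seen. Their windows from 150 bases before the start to 20 after it are shown so that the matches can be compared, 5′ to 3′ on the strand of the gene, with the letters TGATGNAA or their reverse complement in capitals.
Gars, chr6:55037851-55038020, + strand: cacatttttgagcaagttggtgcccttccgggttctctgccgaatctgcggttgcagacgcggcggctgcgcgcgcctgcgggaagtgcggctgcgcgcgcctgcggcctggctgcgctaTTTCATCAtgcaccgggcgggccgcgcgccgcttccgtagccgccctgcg
Aars, chr8:111033692-111033861, + strand: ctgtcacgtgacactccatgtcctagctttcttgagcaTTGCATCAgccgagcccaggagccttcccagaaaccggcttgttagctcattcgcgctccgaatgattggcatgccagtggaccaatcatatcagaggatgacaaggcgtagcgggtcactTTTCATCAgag
Tars, chr15:11399639-11399808, - strand: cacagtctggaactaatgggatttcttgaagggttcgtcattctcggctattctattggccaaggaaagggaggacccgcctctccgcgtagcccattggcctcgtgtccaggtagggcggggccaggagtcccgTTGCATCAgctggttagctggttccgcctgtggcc
Yars, chr4:129189753-129189922, + strand: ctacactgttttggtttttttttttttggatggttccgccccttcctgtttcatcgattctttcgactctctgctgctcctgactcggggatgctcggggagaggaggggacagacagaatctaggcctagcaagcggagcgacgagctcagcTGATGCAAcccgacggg
Iars, chr13:49681980-49682149, + strand: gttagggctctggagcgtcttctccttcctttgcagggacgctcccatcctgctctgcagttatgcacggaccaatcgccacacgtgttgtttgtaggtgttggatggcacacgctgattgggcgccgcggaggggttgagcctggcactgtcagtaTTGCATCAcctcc
The capitals spell TGATGCAA, or its reverse complement TTGCATCA, in Aars, Tars, Yars and Iars, and TGATGAAA, read as TTTCATCA, in Gars and at the other Aars match. The match began 30 bases before the start in Gars, 15 before it in Tars and 112 before it in Aars. In Yars, Iars and the other Aars match it lay inside the transcript, from base 4, base 8 and base 10. For Aars and Yars the start used lies inside the RefSeq span of the gene and is not its first base. Those spans begin at base 111027778 of chromosome 8 and base 129189734 of chromosome 4. A match is a description of letters, and binding was not measured in these samples. The core of the interferon-stimulated response element was found in 1 of 29 members with a window, Qars, against 3.99% of genes in the table. The gamma-activated site TTCNNNGAA was found in Aars, Kars and Nars2, 3 of 29 (10.3%), against 9.55% of genes. None of these matches overlapped a TGATGNAAN match.

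Wars, the tryptophan enzyme, stood apart from the other cytosolic members. It had 134 and 123 CPM in wild type and 614 and 593 CPM in knockout. That was 4.7-fold higher, a log2 fold change of 2.23 ± 0.08 (adjusted p = 2.9e-07), and it passed in all 13 alternative analyses with a range of 2.13 to 2.29. In FPKM it went from 46.7 ± 3.01 to 207 ± 5.09 (SD, n = 2). Wars ranked 4 among the 20 cytosolic enzymes in both wild-type libraries and 1 in both knockout libraries. Its share of their summed FPKM was 8.27% and 7.72% in the wild-type libraries against 19.9% and 21.1% in the knockout libraries. Its mitochondrial partner Wars2 had 12.3 and 11.5 CPM in wild type and 6.54 and 11.2 CPM in knockout (-0.42 ± 0.28, adjusted p = 0.256), and passed as lower only without knockout replicate 2 (-0.85, adjusted p = 0.0313).

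Interferon-gamma response genes were called higher in 18 of 18 cases, where 23.0% of all tested genes were called higher. Their median log2 fold change was 2.25, with a range of 0.98 to 5.8. Ido1, which breaks down tryptophan, the substrate of Wars, went from 28 and 29 counts in wild type to 1492 and 1640 counts in knockout (5.80 ± 0.12, adjusted p = 1.9e-08). Psmb8 and Psmb9, subunits of the immunoproteasome, rose by 2.46 and 2.89, and Socs1, an inhibitor of cytokine signalling, by 4.56. The T and NK cell markers given above rose in the same libraries, and their part in the level of Wars was not tested.

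Mitochondrial synthetases did not move as a class. Of 16, 3 rose and 0 fell by edgeR, near the background of 23.0% higher in share, and 13 did not pass. Their summed counts were 2016 to 2177 per library, against 7583 to 12483 for the 19 cytosolic members. Of the 6 mitochondrial members with at least 100 counts in every library, 1 rose and 0 fell, with a median log2 fold change of 0.17. Hars2 was lower at an unadjusted p under 0.05. DESeq2 called 1 higher and 0 lower, and limma on log2(FPKM + 1) called 2 higher and 2 lower. The median log2 fold change was 0.15, with a range of -0.65 to 0.71, and it changed sign without knockout replicate 1 (-0.04). Both knockout libraries lay above both wild-type libraries for 5 members and below them for 6, against 36.8% and 36.4% of tested genes. The summed FPKM was 141.5 and 136.9 in the wild-type libraries against 150.8 and 138 in the knockout libraries, so those ranges overlapped.

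**Figure D3:**
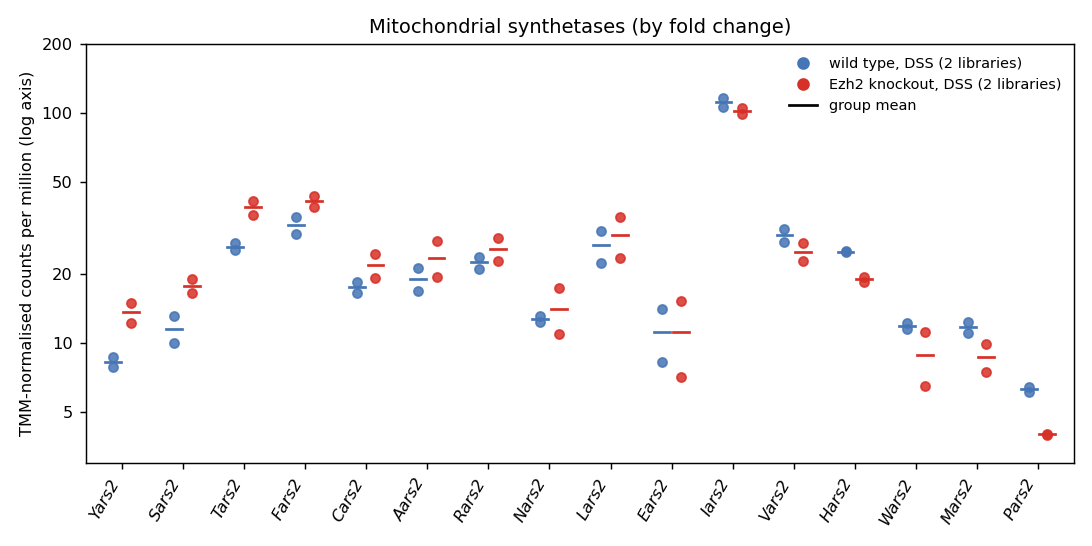
TMM-normalised CPM (log axis) of the 16 mitochondrial synthetases, ordered by fold change, in the 2 wild-type (blue) and 2 knockout (red) libraries, with group means as bars. Only Iars2 exceeds 50 CPM, and the points of Ears2 split by replicate number in both groups.

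Tars2, for threonine, was the mitochondrial member with the smallest p, at 27.3 and 25.3 CPM in wild type and 41.7 and 36.2 CPM in knockout (0.57 ± 0.14, adjusted p = 0.00894), and it passed in every alternative analysis. Yars2, for tyrosine, had 41 and 47 counts in wild type and 78 and 64 counts in knockout (0.71 ± 0.22, adjusted p = 0.0299). Yars2 lost its call without wild-type replicate 1, wild-type replicate 2 or knockout replicate 1 (adjusted p = 0.136, 0.0717 and 0.156), and also with library totals alone (0.053) and with DESeq2 (0.132). Sars2, for serine, had 9.99 and 13.1 CPM in wild type and 16.5 and 19.0 CPM in knockout (0.62 ± 0.21, adjusted p = 0.0377). Sars2 lost its call without wild-type replicate 1 or knockout replicate 2 (adjusted p = 0.223 and 0.115), and also with library totals alone (0.071), a mean FPKM of at least 5 (0.062), DESeq2 (0.138) and both limma fits (0.0607 and 0.0624). The libraries of these 3 genes did not overlap between groups, but without wild-type replicate 1 only Tars2 of the 3 was called.

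The next 3 members by p did not pass. Hars2, for histidine, had 24.8 and 25.2 CPM in wild type and 19.4 and 18.5 CPM in knockout (-0.40 ± 0.15, adjusted p = 0.0547). It was called lower in 5 alternative analyses: library totals alone (adjusted p = 0.0223), a mean FPKM of at least 5 (0.0226), the replicate number as a block (0.0282) and both limma fits (0.0357 and 0.0345). Hars2 was the only member whose transcript list differed between files, by replicate number and not by group. It was therefore left out of the fit on genes with the same transcript list in all files. Hars and Hars2 lie on opposite strands with overlapping exons, and the kit does not mark strand, so reads from the overlap cannot be told apart. In RefSeq the overlap is short: the span of Hars runs to base 36783205 of chromosome 18 and that of Hars2 starts at base 36783202. Counts of both genes were whole in every library. Fars2, for phenylalanine, had 29.8 and 35.3 CPM in wild type and 39.1 and 43.8 CPM in knockout (0.35 ± 0.14, adjusted p = 0.0697). Fars2 changed by 0.42 without knockout replicate 1, and it passed with the replicate number as a block in edgeR (adjusted p = 0.00983). Pars2, for proline, was the scarcest member with 6.15 and 6.47 CPM in wild type and 4.04 and 4.0 CPM in knockout (-0.65 ± 0.29, adjusted p = 0.102), and was called lower in both limma fits (0.0291 and 0.0359). The groups of all 3 genes were separate, with Hars2 and Pars2 low and Fars2 high in the knockout.

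The other 10 mitochondrial members had log2 fold changes between -0.43 and 0.32 and did not pass. Cars2, Aars2, Rars2, Nars2 and Lars2, for cysteine, alanine, arginine, asparagine and leucine, were at 0.32, 0.31, 0.19, 0.16 and 0.14. Aars2 passed without knockout replicate 2 (0.55, adjusted p = 0.0408). Iars2, Vars2 and Mars2, for isoleucine, valine and methionine, were at -0.12, -0.23 and -0.43. Iars2 was the most abundant mitochondrial member, at 32.3 ± 2.24 FPKM in wild type and 27.6 ± 1.16 FPKM in knockout (SD, n = 2). Ears2, for glutamate, had 43 and 37 counts in the replicate 1 libraries of wild type and knockout and 76.3 and 79.5 in the replicate 2 libraries. Its deposited length was 1862 bases in the replicate 1 files and 6544 bases in the replicate 2 files, so FPKM values of this gene are not comparable between replicate numbers, and its fold change was 0.00 ± 0.37.

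Setting the partners for one amino acid side by side gave 16 pairs, with Eprs paired to both Ears2 and Pars2. The cytosolic enzyme had the larger log2 fold change in 14 of the 16, and the median difference was 0.66. The exceptions were Yars with Yars2 (0.31 and 0.71) and Sars with Sars2 (0.43 and 0.62), whose mitochondrial calls were lost in several alternatives as given above. Hars and Hars2 differed by 1.15 and Mars and Mars2 by 1.06 on the log2 scale. Nars and Nars2 differed by 1.06 as well. In wild type the mean FPKM of the cytosolic enzyme was higher in 13 of the 16 pairs. Nars was at 15.5 times the level of Nars2 in wild type and 32.3 times in knockout, while Iars stayed below Iars2 at 0.402 and 0.482 times. Differences within pairs were not tested, and pairs that include Eprs share that gene.

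**Figure D4:**
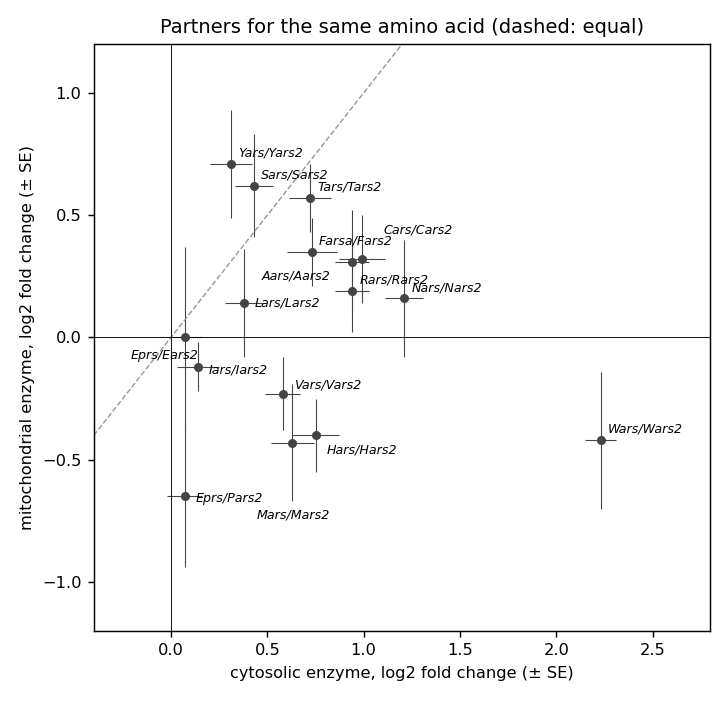
Log2 fold change (knockout minus wild type) of the mitochondrial enzyme against that of the cytosolic enzyme for 16 pairs, with standard errors as bars and a dashed line where both are equal. Of these pairs 14 lie below the line, Wars and Wars2 farthest from it, and Yars/Yars2 and Sars/Sars2 lie above it.

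Genes of the pathways around the synthetases were taken from lists set by function, with earlier results of these data known. Of 32 measured integrated stress response genes and ATF4 targets, 19 rose and 3 fell (median 0.65), where 23.0% of all tested genes were called higher and 20.8% lower. Atf4 itself went from 644 and 724 counts to 1063 and 1060 counts (0.66 ± 0.09, adjusted p = 0.00045). Asns, which makes asparagine, the substrate of Nars, went from 81 and 61 counts to 437 and 341 counts (2.47 ± 0.19, adjusted p = 1.3e-05). Phgdh, which opens serine synthesis, rose by 2.01 ± 0.14, Eif4ebp1, a brake on cap-dependent translation, was 2.82-fold higher, and the cystine transporter Slc7a11 rose by 1.04 ± 0.09. The 3 that fell were Gpt2, Cth and Pck2 (-1.71, -1.09 and -0.59), named after their values were seen, which encode enzymes of alanine, cysteine and phosphoenolpyruvate metabolism. Ddit3, the stress factor CHOP, also named after its values were seen, was at -0.31 ± 0.19 (adjusted p = 0.227). Its exons overlap those of Mars on the other strand.

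Of 12 genes for eIF2, its kinases and its exchange factor eIF2B, 8 rose and 1 fell (median 0.42), against the same 23.0% and 20.8%. Eif2s2, a subunit of eIF2, rose by 1.18 ± 0.09, and Eif2b2 and Eif2s1 by 0.71 and 0.73. Eif2ak3, the kinase PERK of the endoplasmic reticulum, rose by 0.49 ± 0.10 (adjusted p = 0.00438). Eif2ak4, the kinase GCN2 that senses uncharged tRNA, fell by 0.53 on the log2 scale (adjusted p = 0.034), and was named after its values were seen. Of 11 cytosolic elongation and termination factors, 5 rose and 3 fell (median 0.13), against the same shares. Eif5a rose by 0.93 and Gspt1 by 0.51, while Eef2, the translocation factor, fell by 0.41 and its kinase Eef2k by 1.12 on the log2 scale.

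On the mitochondrial side, 51 of 78 mitochondrial ribosomal protein genes rose and the other 27 did not pass (median 0.55). Mrpl20, Mrpl18, Mrpl28 and Mrpl54, proteins of the large subunit, rose by 1.11, 0.96, 0.88 and 1.02. Of 14 mitochondrial translation factors, 3 rose and 11 did not pass (median 0.14). These were the elongation factors Gfm1, Tufm and Tsfm, at 0.93, 0.61 and 0.99. The mitochondrial synthetases thus had 3 of 16 members called, the translation factors 3 of 14 and the ribosomal proteins 51 of 78, where 23.0% of all tested genes were called higher. The first 2 counts are near that share and the last is above it, and the difference between these lists was not tested. Of 13 related genes outside the member list, 2 rose and 11 did not pass. Aarsd1, an alanine editing protein, rose by 0.75 and Eef1e1 as given above. Qrsl1, Gatb and Gatc, which make mitochondrial glutamine tRNA by amidation, were at 0.42, 0.53 and -0.21 and did not pass, the last pair of genes being named after their values were seen.

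**Figure D5:**
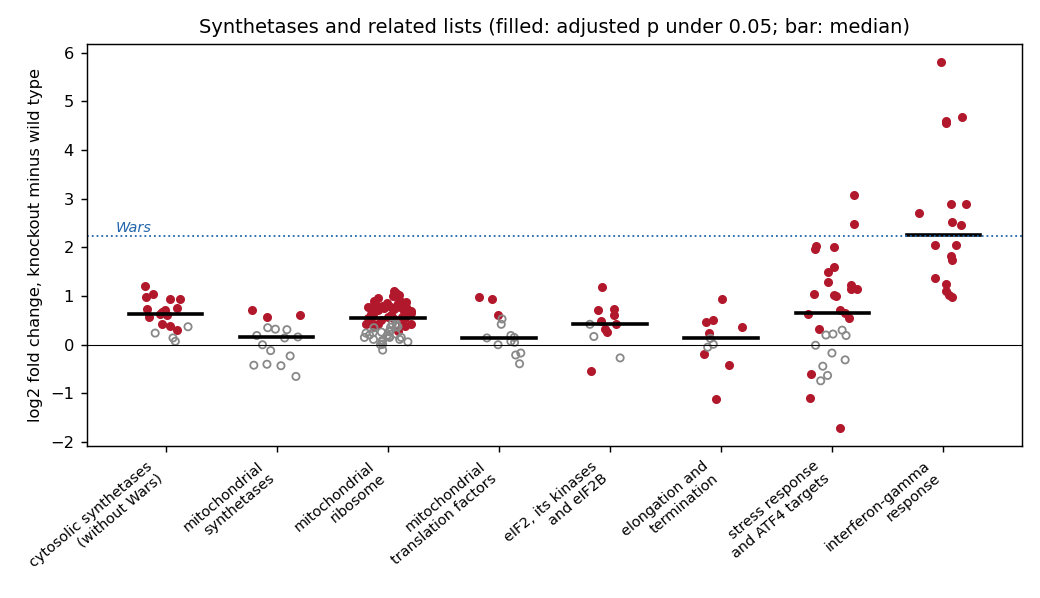
Log2 fold change (knockout minus wild type) of each gene of the synthetase classes and of 6 related lists, with filled points past the adjusted p threshold of 0.05, the list median as a bar and the value of Wars, 2.23, as a dotted line. The medians are 0.63 for the cytosolic synthetases, 0.65 for the stress response list, 0.55 for the mitochondrial ribosome and 0.42 for the eIF2 list. They are 0.15 for the mitochondrial synthetases, 0.14 for the mitochondrial translation factors, 0.13 for elongation and termination and 2.25 for the interferon-gamma list. The stress response list runs from -1.71 to 3.08 and the interferon-gamma list from 0.98 to 5.8. Likeness between lists was not tested.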

How the data were processed

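The authors deposited one table per library holding gene length (unit other, used only to compare files), expected counts and FPKM, per the file headers. The deposited expected counts are estimates, of which 78.8% to 80.2% were whole numbers. The deposited FPKM values are counts scaled by transcript length and library size, per the file headers. The submitters' processing notes name Bowtie2, BWA and the human build hg19, although the organism is mouse and 18820 of 18872 gene identifiers matched the RefSeq mouse table. Which tool quantified the reads was not given in the sources used here. An Illumina TruSeq kit was used on total RNA, per the labels' protocols.

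A gene that a file does not list was set to 0 there. After rounding, expected counts were tested by edgeR 4.0.16 in R 4.3.3 (filterByExpr, TMM, glmQLFit and glmQLFTest, 2 libraries against 2, two-sided, Benjamini-Hochberg over 13608 genes, threshold 0.05). Standard errors were computed as the size of the log2 fold change over the root of F. The common dispersion was 0.0166. Libraries of a group differed beyond sampling noise (chi-square per degree of freedom 2.18 in wild type and 2.95 in knockout) and were kept separate. The files of replicate 1 and replicate 2 do not use the same annotation: of 15360 genes listed in all 4 files, 556 had transcript lists that differed by replicate number and 0 had lists that differed by group. The spread within a group therefore includes this difference. The code was tested on simulated data. Alternatives used DESeq2 1.42.0, limma 3.58.1 on log2(FPKM + 1) and log2(FPKM + 0.1), other scalings and filters, and each library left out. The members and lists were chosen with earlier results of these data known. Values are given in every library for Wars, Aimp1, Aimp2, the 8 cytosolic and 6 mitochondrial members with the smallest p and Ears2, and up to 4 genes by p of each other list. Those of Dars, Qars, Iars and Eprs were added after they were seen. Exons of 11 members overlap another gene in GENCODE vM21, among them Aars, Mars, Yars and Aimp2, and counts of Ears2, Lars2 and Wars2 were not whole, so their reads may be shared. Printed sequences are from RefSeq, GRCm38.p6. No protein sequence was used here.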

Additional observations from a re-analysis of the deposited data

How the results depend on the processing

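Cytosolic members called higher numbered 13 to 17 in the 13 alternatives and 0 were called lower in any of them. With a library left out they ranged from 13 to 17, the median log2 fold change of the class from 0.59 to 0.72 and Wars from 2.17 to 2.29. The cytosolic median was 0.50 with limma on log2(FPKM + 1). The replicate numbers are shared between groups, and same-numbered libraries deviated together (correlation 0.629 over 12193 genes), but with only 2 pairs, and since the annotation also differs by replicate number, they were not taken as pairs. With the number as a replicate block, 17 cytosolic, 4 mitochondrial and 2 scaffold members were higher and 1 mitochondrial member lower, in all 3855 genes higher and 3548 lower. Mitochondrial members called higher were 1 with library totals alone and with DESeq2, and 1 to 3 with a library left out. Those called lower were 1 with library totals alone, with a mean FPKM of at least 5 and without knockout replicate 2 (0 to 1 over the left-out libraries), and 2 in each limma fit. The mitochondrial median was 0.05 with library totals alone, 0.23 with a mean FPKM of at least 5, 0.02 in both limma fits and -0.04 to 0.31 with a library left out. Scaffold genes called higher were 2 on genes with the same transcript list, 0 with DESeq2 and 0 to 1 with a library left out. Library totals alone moved the median of all genes to -0.103 and the split to 2555 higher and 3465 lower, against 3126 and 2824. Eprs changed sign with library totals alone and in both limma fits (-0.03 in each), Lars2 without wild-type replicate 2 (-0.07) and knockout replicate 1 (-0.19), and Nars2 without knockout replicate 1 (-0.21), while both reached 0.42 and 0.45 without knockout replicate 2. Ears2, at 0.00 with all libraries, was at -0.34 without wild-type replicate 1 and -0.64 without knockout replicate 2. It was at 0.44 without wild-type replicate 2 and also without knockout replicate 1. The cause of these changes was not tested. Precision is limited by 2 libraries per group, and the standard error was 0.29 for Pars2 with 21 to 35 counts and 0.10 for Iars2 with 521 to 608.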
